A study of Zea mays with 6 samples.

Results

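The 6 plant height genes of maize (Zea mays) described here were followed in the shoots of seedlings without Gβ and of wild-type seedlings. Gβ is the β subunit of heterotrimeric G proteins. These 6 genes were picked by identifier as known genes of gibberellin, brassinosteroid and auxin biology, and make up 6 of the 44146 genes listed. They are the DELLA genes d8 (dwarf8, Zm00001d033680) and d9 (dwarf9, Zm00001d013465), the gibberellin 3-oxidase gene d1 (dwarf1, Zm00001d039634), the brassinosteroid synthesis gene na2 (nana plant2, Zm00001d014887), the brassinosteroid receptor gene bri1a (Zm00001d011721) and the auxin transporter gene br2 (brachytic2, Zm00001d031871). These names come from the list of members. The deposited tables hold B73 RefGen_v4 identifiers without names. All 6 genes passed the filter for expressed genes (1 FPKM or more in 3 or more libraries), as did 23232 genes in all.

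The libraries were 3 of a Gβ knockout line (KO1, genotype label GBetaKO) and 3 of the wild type (WT), all from untreated plants at the three-leaf stage with the roots taken off. Growth conditions are described only as normal. A single knockout line was sampled, the labels give no inbred background for either genotype, and they do not say how many plants a library holds, so the effect of the missing Gβ and that of any other difference between the lines cannot be told apart. Levels are FPKM, fragments per kilobase of gene length after division by a factor for each library, so levels of different genes can be set side by side. In whole shoots, fewer cells of a type and less RNA per cell cannot be told apart.

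Gibberellin promotes stem elongation by bringing about the breakdown of DELLA proteins, nuclear repressors of growth. Maize has a pair of them, encoded by d8 and d9, and dominant mutant alleles of either gene give gibberellin-insensitive dwarfs. The product of d1 makes bioactive gibberellin from its inactive precursors, and plants without it are dwarfs that gibberellin restores to normal height. The product of na2 acts on a sterol intermediate on the way to brassinosteroids, which the bri1a product, a receptor kinase at the cell surface, perceives. The product of br2 is an ABC-type transporter that moves auxin down the stalk, and its mutants have shortened lower internodes. Mutants of the maize Gα gene (compact plant2) are short as well, which gives the question of how height genes are expressed in plants without Gβ.

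Among the 6 genes, none passed the test between genotypes. The test was limma on log2(FPKM + 1) with Benjamini-Hochberg adjustment over all tested genes and a threshold of 0.05. All log2 fold changes given here are on this scale, on which the pseudocount of 1 shrinks the differences of weakly expressed genes. The test called 31.2% of the tested genes, 15.2% as higher and 16.0% as lower in KO1. At an unadjusted p below 0.05, 2 of the 6 genes passed, d1 and d8, against 43.2% of all tested genes, and limma-voom on reads worked back from the FPKM called 0 of the 6 (30.8% of all tested genes). The fitted log2 fold change was below 0 for 3 genes and above 0 for 3, with a median of -0.19 over the 6 and 0.02 over all tested genes. The median size of the log2 fold change, whatever its sign, was 0.33 over the 6 genes and 0.50 over all tested genes. The 3 KO1 values lay wholly on 1 side of the 3 WT values in 2 of the 6 genes, d1 and d8, against 49.4% of all tested genes. In both the KO1 values were the lower, as in 24.5% of all tested genes, and none had KO1 values wholly above WT values, as in 25.0% of all tested genes. The number of members called was not the same under every setting: 1 of 6 without WT replicate 3 (37.1% of all tested genes called), 2 of 6 without WT replicate 3 and KO1 replicate 2 (51.4%), 1 of 6 after quantile normalization (31.7%), 3 of 6 with libraries weighted by their spread (64.5%) and 0 of 6 with a replicate block (19.7%). The library weights were estimated from these same values and were largest for KO1 replicate 3 and WT replicate 1.

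**Figure D1:**
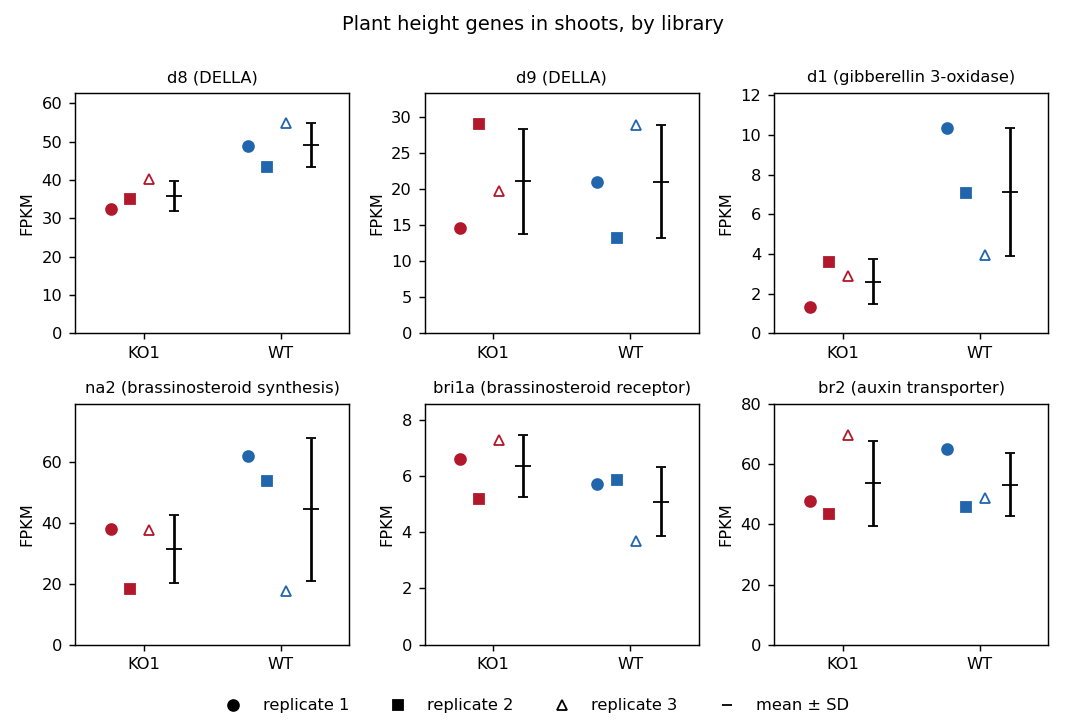
FPKM of each of the 6 genes in the 3 KO1 and 3 WT libraries, with the mean and SD of each group at its right. The KO1 values lie below the WT values without overlap in d8 and d1, and the groups overlap in d9, na2, bri1a and br2.

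A pair of libraries stood apart from the rest of their groups, KO1 replicate 2 and WT replicate 3. Genotype separated the libraries on the first principal component (69.4% of the variance over tested genes). On the second (20.1%), KO1 replicate 2 had a score of 37.8 and WT replicate 3 of 83.8, while the others scored from -48.6 to -11.6. Depth, as whole reads recovered from the FPKM, was 16011528 to 17664380 reads in KO1 libraries and 14757285 to 17042287 in WT libraries.

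The gibberellin 3-oxidase gene d1 had the lowest KO1 level of the 6 genes and the largest fitted difference. Its level was 1.35, 3.59 and 2.88 FPKM in KO1 replicates 1, 2 and 3, against 10.4, 7.05 and 3.93 FPKM in WT replicates 1, 2 and 3. All KO1 values lay below all WT values, but the gap between the highest KO1 library and the lowest WT library, replicates 2 and 3 of their groups, was 0.345 FPKM. The means were 2.60 ± 1.14 FPKM in KO1 and 7.12 ± 3.22 FPKM in WT (SD, n = 3 each), so that the KO1 mean was 0.366 of the WT mean. On the scale of FPKM + 1 the log2 fold change was -1.14 ± 0.39 (SE), or 0.452-fold, with a 95% interval of -2.08 to -0.21 (limma adjusted p = 0.067), which misses the threshold. Its size moved with the pseudocount, to -1.42 with 0.1 (limma adjusted p = 0.072) and -0.65 with 5 (limma adjusted p = 0.070). In size it stood at the 77.6th percentile of all tested genes.

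These d1 values rest on few reads. The gene had 51, 107 and 99 reads in KO1 replicates 1, 2 and 3, against 281, 208 and 102 in WT replicates 1, 2 and 3. The 95% Poisson interval ran from 2.94 to 4.34 FPKM in KO1 replicate 2 and from 3.21 to 4.77 FPKM in WT replicate 3, so the neighbouring libraries of the 2 genotypes could not be separated by counting alone. The spread between libraries was wider than counting error, with a coefficient of variation of 44.0% in KO1 and 45.2% in WT, where the reads alone would give about 11.2% and 7.60%. These intervals cover counting error only. Without WT replicate 3 the log2 fold change of d1 was -1.46 (limma adjusted p = 0.020), and without WT replicate 3 and KO1 replicate 2 it was -1.66 (limma adjusted p = 0.0064). These fits called 37.1% and 51.4% of all tested genes. The libraries left out were picked from these data, and are the lowest WT and the highest KO1 library for d1. With each single library removed the log2 fold change of d1 lay between -1.46 and -0.86.

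Of the DELLA genes, d8 was the more abundant in every library. Its level was 32.4, 35.1 and 40.2 FPKM in KO1 replicates 1, 2 and 3, against 48.8, 43.3 and 54.8 FPKM in WT replicates 1, 2 and 3. Every KO1 library lay below every WT library, with a gap of 3.16 FPKM. The KO1 mean of 35.9 ± 3.94 FPKM was 26.7% below the WT mean of 49.0 ± 5.75 FPKM (SD, n = 3 each). The log2 fold change of d8 was -0.44 ± 0.17 (SE), with a 95% interval of -0.85 to -0.03 (limma adjusted p = 0.099). Its coefficients of variation, 11.0% in KO1 and 11.7% in WT, were the smallest among the 6 genes in both genotypes, and the standard error of its fold change stood at the 20.02nd percentile of all tested genes.

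The second DELLA gene, d9, had nearly equal means in both genotypes and a wide spread. Its level was 14.6, 28.9 and 19.7 FPKM in KO1 replicates 1, 2 and 3, against 20.9, 13.3 and 28.9 FPKM in WT replicates 1, 2 and 3. Each genotype spanned a range of about 2-fold, with a high-to-low ratio of 1.98 in KO1 and 2.18 in WT, and the ranges overlapped almost entirely. The means were 21.1 ± 7.26 FPKM in KO1 and 21.0 ± 7.81 FPKM in WT (SD, n = 3 each). Its log2 fold change was 0.02 ± 0.35 (SE), and the 95% interval of -0.83 to 0.86 leaves room for a KO1 level between 0.564 and 1.82 times that of WT on the scale of FPKM + 1 (limma adjusted p = 0.98).

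The balance of the pair was compared within libraries. The ratio of d8 to d9 in FPKM, in which the scaling between libraries cancels, was 2.22, 1.22 and 2.04 in KO1 replicates 1, 2 and 3, against 2.34, 3.27 and 1.90 in WT replicates 1, 2 and 3. It was lowest in KO1 replicate 2 and highest in WT replicate 2, and the groups overlapped. The log2 ratio of FPKM + 1 averaged 0.79 ± 0.45 in KO1 and 1.24 ± 0.37 in WT (SD, n = 3 each), a difference of -0.45 (exact two-sided permutation p = 0.4, where 3 against 3 allows none below 0.1). Without the pseudocount the difference was -0.47, with the same exact permutation p. Summed over both genes the DELLA transcript level was 57.0 ± 8.89 FPKM in KO1 and 70.0 ± 13.6 FPKM in WT (SD, n = 3 each). The groups overlapped, with KO1 replicate 2 at 64.1 FPKM and WT replicate 2 at 56.6 FPKM, and the sum was not tested. Of this sum d8 made up 54.9% to 68.9% in KO1 libraries and 65.5% to 76.6% in WT libraries. DELLA protein was not measured.

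**Figure D2:**
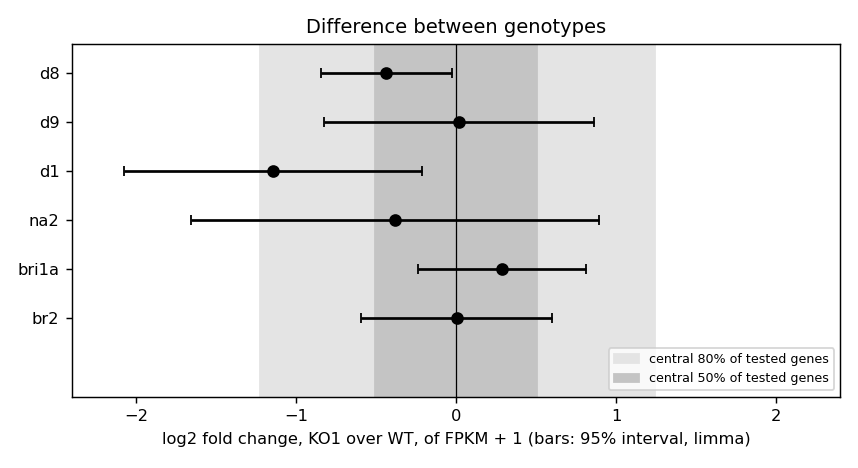
Log2 fold change, KO1 over WT, of each gene with its 95% interval from limma, on the scale of FPKM + 1, over grey bands that hold the central parts of all tested genes (darker, from -0.51 to 0.50; lighter, from -1.22 to 1.24). The intervals of d8 and d1 lie below 0 before adjustment, and those of the other 4 genes include 0.

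The brassinosteroid synthesis gene na2 varied more between libraries than between genotypes. Its level was 37.9, 18.4 and 37.7 FPKM in KO1 replicates 1, 2 and 3, against 62.1, 53.8 and 17.7 FPKM in WT replicates 1, 2 and 3. In each genotype a single library was low, and these are the same libraries that stood apart on the second principal component. The low level was 0.488 of the mean of the other KO1 libraries in KO1 replicate 2 and 0.306 of the mean of the other WT libraries in WT replicate 3. The means were 31.3 ± 11.2 FPKM in KO1 and 44.6 ± 23.6 FPKM in WT (SD, n = 3 each). The log2 fold change was -0.38 ± 0.53 (SE), with a 95% interval of -1.66 to 0.89 (limma adjusted p = 0.62), and its standard error stood at the 93.3rd percentile of all tested genes.

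Reads were not limiting for na2, with 984 to 2566 per KO1 library and 823 to 3012 per WT library. Without KO1 replicate 2 and WT replicate 3 the means were 37.8 FPKM in KO1 and 58.0 FPKM in WT. The libraries left out were picked from these data and are the lowest for na2 in their groups, so leaving them out narrows the spread. The fit on the other 4 libraries called 51.4% of all tested genes. In it the log2 fold change of na2 was -0.60 ± 0.12 (SE, limma adjusted p = 0.0098). Without WT replicate 3 alone it was -0.93 (limma adjusted p = 0.081), without KO1 replicate 2 alone -0.05 (limma adjusted p = 0.96), without WT replicate 1 alone -0.06 (limma adjusted p = 0.96) and without WT replicate 2 alone -0.16 (limma adjusted p = 0.87).

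The receptor gene bri1a was weakly expressed. Its level was 6.62, 5.16 and 7.30 FPKM in KO1 replicates 1, 2 and 3, against 5.72, 5.86 and 3.67 FPKM in WT replicates 1, 2 and 3. KO1 libraries were above WT libraries in 7 of the 9 pairings, and the exceptions were KO1 replicate 2 against WT replicates 1 and 2. The means were 6.36 ± 1.09 FPKM in KO1 and 5.08 ± 1.23 FPKM in WT (SD, n = 3 each). For bri1a the log2 fold change was 0.28 ± 0.22 (SE), with a 95% interval of -0.24 to 0.81 (limma adjusted p = 0.37). Without WT replicate 3, the lowest library for this gene, it was 0.10 (limma adjusted p = 0.68).

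The transcript levels of na2 and bri1a can be compared within a library through their ratio, which measures neither hormone synthesis nor perception. This ratio was 5.73, 3.57 and 5.17 in KO1 replicates 1, 2 and 3, against 10.9, 9.18 and 4.83 in WT replicates 1, 2 and 3. WT replicate 3 lay among the KO1 libraries, so the groups overlapped, and the other WT libraries lay above all KO1 libraries. The log2 of this ratio, without a pseudocount, averaged 2.24 ± 0.36 in KO1 and 2.97 ± 0.62 in WT (SD, n = 3 each), a difference of -0.73 (exact two-sided permutation p = 0.3, smallest possible 0.1).

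The auxin transporter gene br2 was the most abundant of the 6 genes in both genotypes. Its level was 47.8, 43.6 and 70.0 FPKM in KO1 replicates 1, 2 and 3, against 65.2, 45.7 and 48.7 FPKM in WT replicates 1, 2 and 3. In both genotypes a single library was high, replicate 3 in KO1 and replicate 1 in WT, and the others were close to each other. The means were 53.8 ± 14.2 FPKM in KO1 and 53.2 ± 10.5 FPKM in WT (SD, n = 3 each). Between genotypes the log2 fold change was 0.002 ± 0.25 (SE, limma adjusted p = 0.996). Its 95% interval of -0.60 to 0.60 corresponds to a KO1 level of 0.662 to 1.52 times that of WT on the scale of FPKM + 1. With 3264 to 6042 reads per KO1 library and 3172 to 4435 per WT library, counting error was at most 1.67% on average in a group.

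In KO1 the order of mean levels was br2, d8, na2, d9, bri1a and d1. In WT it was br2, d8, na2, d9, d1 and bri1a. In KO1 the ranges of na2 overlapped those of d8 and d9, while br2 lay above d8, d9 above bri1a and bri1a above d1 in every library without overlap of the ranges. In WT neighbours in the order overlapped except d9 and d1. Over all tested genes, br2 stood at the 91.7th percentile of level in KO1 and the 89.8th in WT, and d8 at the 86.6th in KO1 and the 88.8th in WT. The gene d1 stood at the 14.8th percentile in KO1 and the 42.5th in WT.

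The places of d1 and bri1a in this order differed between the genotypes. The ratio of d1 to bri1a was 0.204, 0.695 and 0.395 in KO1 replicates 1, 2 and 3, against 1.81, 1.20 and 1.07 in WT replicates 1, 2 and 3. Thus bri1a had the higher level in each of the 3 KO1 libraries and d1 in each of the 3 WT libraries. In WT replicates 2 and 3 the Poisson intervals of d1 and bri1a overlapped, and their order within a library was not tested. The intervals ran from 6.13 to 8.08 FPKM for d1 and from 5.22 to 6.56 FPKM for bri1a in WT replicate 2. In WT replicate 3 they ran from 3.21 to 4.77 FPKM for d1 and from 3.14 to 4.27 FPKM for bri1a. In WT replicate 1 and the KO1 libraries these intervals were apart. The d1 to bri1a ratio did not overlap between the groups. The log2 of this ratio, without a pseudocount, averaged -1.39 ± 0.89 in KO1 and 0.41 ± 0.40 in WT (SD, n = 3 each), a difference of -1.80 (exact two-sided permutation p = 0.1, the smallest possible). With a pseudocount of 1 on both genes the difference was -1.43. Of the 4 ratios computed, d8 to d9 was planned, though with earlier results of these data known. The others were chosen after the values had been seen. The share of all gene pairs whose ratios do not overlap between genotypes was not computed. The fourth, d1 to d8, differed by -1.01 on the log2 scale without a pseudocount and by -0.71 with a pseudocount of 1, and with Benjamini-Hochberg adjustment over the 4 every exact permutation p was 0.4.

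**Figure D3:**
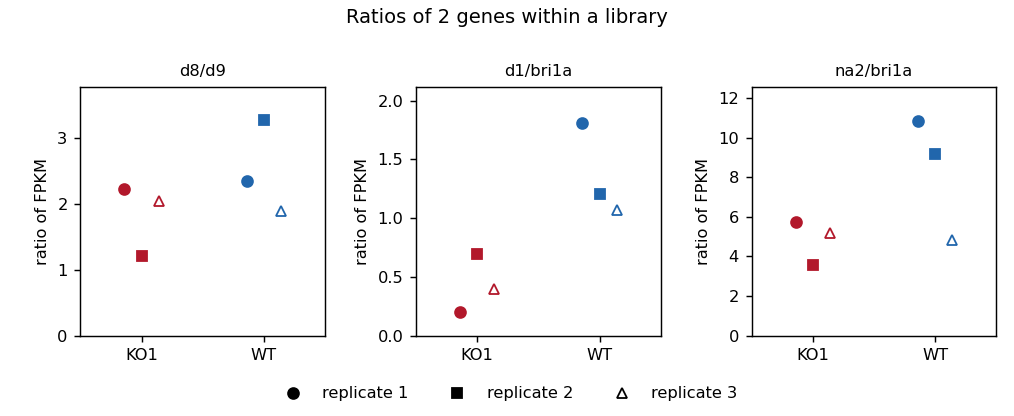
Ratio of the FPKM of 2 genes in the same library, in 3 KO1 and 3 WT libraries. The d1/bri1a ratio lies below 1 in all KO1 libraries and above 1 in all WT libraries, and the d8/d9 and na2/bri1a ratios overlap between genotypes. In WT replicates 2 and 3 the Poisson intervals of d1 and bri1a overlap, and their order within a library was not tested. The d1/bri1a and na2/bri1a pairs were chosen after the values had been seen.

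Within their groups, KO1 replicate 2 and WT replicate 3 departed the same way in 4 of the 6 genes. Over all tested genes the departures of these libraries correlated at 0.37. The share of all tested genes that departed the same way was not computed, so the count cannot be read as a trait of the 6 genes. Relative to the other libraries of its genotype, d9 was 1.69 times as high in KO1 replicate 2 and 1.69 times as high in WT replicate 3. The brassinosteroid genes and br2 were lower in both libraries, at 0.742 and 0.634 of the other libraries for bri1a and 0.740 and 0.879 for br2, in KO1 replicate 2 and WT replicate 3. Among all tested genes, the departure of na2 stood at the 3.17th percentile in KO1 replicate 2 and the 2.22nd in WT replicate 3, counted from the most negative. The departure of d1 ran in opposite directions, at 1.70 times the other libraries in KO1 replicate 2 and 0.451 times in WT replicate 3. For d8 the values were 0.969 and 1.19. The labels give no harvest time or batch for these libraries, and the part of such differences in the results was not tested.

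**Figure D4:**
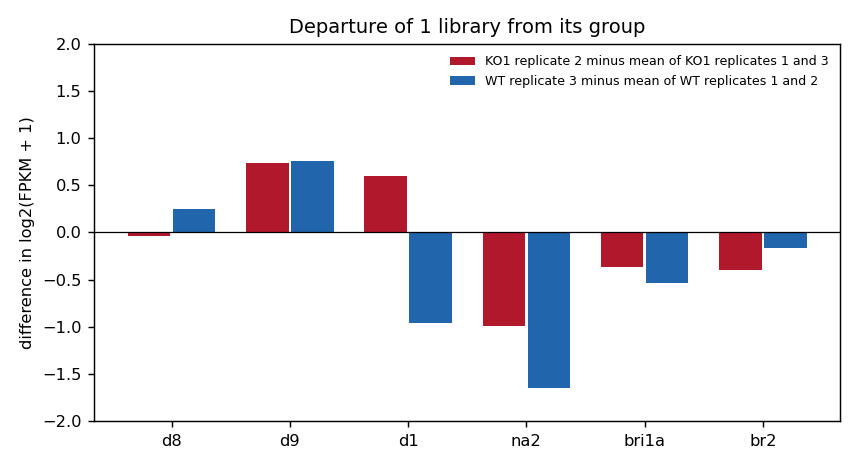
Difference in log2(FPKM + 1) of KO1 replicate 2 from the mean of the other KO1 libraries, and of WT replicate 3 from the mean of the other WT libraries, for each gene. In both libraries d9 lies above and na2, bri1a and br2 lie below the rest of their group, whereas d1 departs upward in KO1 replicate 2 and downward in WT replicate 3.

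The separation of the genotypes in d8 and d1 also rested on the scaling between libraries. When every library was scaled to the same total of reads, the median log2 fold change of all tested genes became 0.20, and 61.3% of all calls were higher in KO1, against 48.8% with the deposited scaling. On that scale none of the 6 genes had groups without overlap, against 49.2% of all tested genes. The level of d8 was then 36.9, 34.8 and 44.6 in KO1 replicates 1, 2 and 3, against 47.6, 44.0 and 44.3 in WT replicates 1, 2 and 3, and its log2 fold change was -0.23 (limma adjusted p = 0.36). That of d1 was -0.99 (limma adjusted p = 0.11), with KO1 replicates 2 and 3 at 3.55 and 3.19 and WT replicate 3 at 3.18. The ratio of d1 to bri1a in FPKM, without a pseudocount, is the same under any such scaling, but this pair was chosen after the values had been seen.

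**Figure D5:**
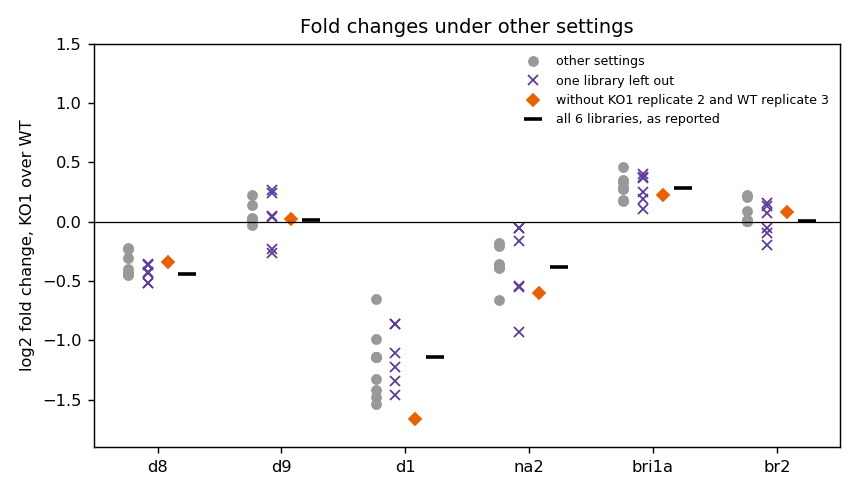
Log2 fold change, KO1 over WT, of each gene with all 6 libraries (black bars), with each library left out (crosses), without KO1 replicate 2 and WT replicate 3 (diamonds) and under other settings (grey points). Values of d8, d1 and na2 stay below 0 and those of bri1a above 0, whereas d9 and br2 fall on both sides.

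Genes with a similar profile over the 6 libraries were sought by the root mean square distance between log2(FPKM + 1) values centred on each gene's mean. Within a distance of 0.25 there were 33 genes for d1 and 153 for na2, against 532 for d9, 886 for br2, 2567 for d8 and 3312 for bri1a. With a fixed distance these counts also depend on how strongly a profile varies, so they do not measure how rare a pattern is. The nearest to d1 was Zm00001d012779 at a distance of 0.151, with 6.31 ± 1.74 FPKM in KO1 and 14.97 ± 6.03 FPKM in WT (SD, n = 3 each). The nearest to d8 was Zm00001d008993 at 0.049, with 22.9 ± 2.33 FPKM in KO1 and 32.6 ± 4.84 FPKM in WT. Those nearest to d9 and bri1a were Zm00001d023620 at 0.057 and Zm00001d050234 at 0.033. These identifiers carry no names in the files. Among the 6 genes themselves the closest profiles were those of bri1a and br2, at 0.272, and the farthest were those of d9 and na2, at 1.02.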

How the data were processed

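RNA from 6 libraries was analysed, 3 of KO1 and 3 of WT, read as 150 bp pairs, as the design text says. The authors deposited a table of FPKM per gene for each library. The submitters' processing notes name TopHat2, Cufflinks, Cuffdiff and B73 RefGen_v4. Versions, annotation and strandedness: not given in the sources used here. Therefore reads shared with near-identical copies or overlapping genes cannot be separated. The tables have no header, and the unit was taken from the tools and the values.

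The values log2(FPKM + 1) of every gene that reached 1 FPKM in 3 or more libraries were fitted with limma (version 3.58.1, R 4.3.3), with genotype as the only term, two-sided, and a robust, trended empirical Bayes step. The script was tested on simulated data. The labels call the libraries biological replicates without naming plants, so p-values measure the spread between these libraries. Whole reads were worked back from the FPKM (within 0.02 of a read, growing slightly with the count) for all 31946 genes above 0, with implied gene lengths of 1893 bases for d8, 1878 for d9, 1921 for d1, 3436 for na2, 3369 for bri1a and 4823 for br2. Genes in few libraries meet this easily. The library totals implied by the FPKM were 0.79 to 1.12 times these reads. Replicates differed by more than sampling noise (mean chi-square per gene of 10.2 to 125).

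The members, ratios and settings were chosen with earlier results of these data known. All 6 members are named by rule, with the gene of nearest profile for 4 of them. Of the identifiers, 0 of 44146 matched the RefSeq table used here, so other pathway genes, shoot markers and the targeted Gβ gene were not analysed here, and no sequences are shown. Other steps ran in Python 3.11.15 (scipy 1.17.1, pandas 2.3.3, numpy 2.4.6).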

Additional observations from a re-analysis of the deposited data

How the results depend on the processing

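Under 9 of the 12 settings other than leaving out a single library, no member passed the threshold. With quantile normalization 1 member was called, d1 at -1.33 (31.7% of all tested genes called). Under that setting the log2 fold change of d8 was -0.22 (limma adjusted p = 0.36), against -0.44 in the main fit. With library weights 3 were called, d1 at -1.53, na2 at -0.66 and d8 at -0.31 (64.5%). The weights were estimated from these same values. They were 5.20 for KO1 replicate 3 and 4.27 for WT replicate 1, against 0.16 to 1.08 for the other libraries. So this fit rests mostly on 1 library of each genotype. Without KO1 replicate 2 and WT replicate 3, 2 were called, d1 at -1.66 and na2 at -0.60 (51.4%). Dropping each library singly gave 0 to 1 called members, the 1 being d1 without WT replicate 3 (37.1%). The log2 fold change of d9, 0.02, became -0.026 with library weights and ran from -0.26 to 0.27 with each library left out. That of br2, 0.002, ran from -0.20 to 0.16 with each library left out, and those of d8, d1, na2 and bri1a ran from -0.52 to -0.35, -1.46 to -0.86, -0.93 to -0.05 and 0.10 to 0.41 without a change of sign. The size of d1 depended on the pseudocount, at -1.42 with 0.1 and -0.65 with 5, and was -1.48 with voom. The d8 to d9 log2 ratio differed by -0.62 to -0.20, and by -0.47 without a pseudocount. A mean of at least 5 FPKM removed d1 from the test. Over all tested genes, calls were 14976 with library weights (7501 higher and 7475 lower), 11952 on 4 libraries (5894 and 6058), 4579 with a replicate block (2171 and 2408), and 4212 to 8614 with each library left out (2021 to 4197 higher, 2191 to 4417 lower), against 7238. A mean of at least 5 FPKM, with 16513 genes tested, gave 2105 higher and 3036 lower calls. The share of calls that were higher was then 40.9%, against 48.8% with all 23232 tested genes. The cause of these differences was not tested. The replicate block left no member called, with d1 at an adjusted p of 0.13 in limma. Departures of same-numbered libraries correlated at 0.15, -0.37 and -0.20. Libraries with different numbers reached 0.47 for KO1 replicate 1 with WT replicate 2 and 0.37 for KO1 replicate 2 with WT replicate 3. For KO1 replicate 3 with WT replicate 1 the value was 0.28. With 3 libraries per genotype these correlations depend on each other, so they cannot decide whether a shared number marks a pair. Reads limit d1 most, at 51 to 281 a library.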
